A study of Mus musculus with 8 samples.

Results

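Cultured fibroblastic reticular cells (FRCs) exposed to 15 mmol/L lactic acid (LA) were compared with FRCs given the same volume of water (vehicle). The comparison used 4 of the 8 libraries of the series, 2 LA and 2 vehicle, which were chosen by their labels. Of 55367 genes in the count table, 12137 had at least 10 counts in at least 3 of the 8 libraries and were tested. The response is described here mainly for genes that the study did not draw by name in its own plots.

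FRCs are the stromal fibroblasts of the lymph node. They build its collagen network and secrete chemokines and survival factors for lymphocytes. Lactate, the end product of glycolysis, is exported by tumor cells together with a proton, so LA changes both the carbon supply and the acidity around a neighboring cell. Genes read by glucose-sensing transcription factors, genes of sterol synthesis and genes of the cell cycle are known to respond to nutrient or acid state in cultured cells. Neither state was measured in these libraries, and their part in the results was not tested.

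All samples came from 1 FRC line, established from lymph nodes of C57BL/6 mice carrying the p53 ER/ER allele, so the libraries of a group are not separate animals, although the study describes them as biological replicates. Each group had 2 libraries and received RPMI medium with 2% serum for 4 days, renewed after 48 hours: vehicle had water, LA had 15 mmol/L lactic acid, control conditioned medium (CCM) came from FRCs, and tumor-conditioned medium (TCM) came from B16.F10 melanoma cells. The CCM and TCM libraries entered the fit to estimate the spread, and their levels are given beside the LA values for some of the genes. Where CCM lay near LA, vehicle was the group that stood apart. Total counts ranged from 8232889 to 14107964 per library, and levels are given as CPM, counts scaled to a common library size. With 2 libraries against 2, an exact permutation test of 1 gene cannot give a two-sided p below 0.333, so calls rest on the spread shared by all genes in edgeR.

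The label of the line was checked against FRC markers. Podoplanin (Pdpn) was measured at 114 and 137 CPM in vehicle and at 124 and 130.1 CPM in LA. The adjusted p for Pdpn was 0.983, and the 2 groups overlapped. The chemokine gene Cxcl12 lay between 7801 and 9348 CPM in the 4 libraries. Other defining markers were near 0: Thy1 had from 1 to 4 counts per library, and Ccl19, Ccl21a and Cxcl13 had 0 counts in all 4, where a count of 0 allows up to 0.355 CPM in the shallowest library. The matrix gene Col3a1 was the only called gene of 13 tested FRC markers, against 2.55% of all genes. Col3a1 fell from 7632 and 8162 CPM to 4868 and 5156 CPM (1.58-fold, adjusted p = 0.0126). Of 10 blood cell markers, 7 had 0 counts in all 4 libraries, Ptprc and Cd3e among them, and the summed level of the list was 14.5 and 18.0 CPM in vehicle and 10.1 and 11 CPM in LA, mostly from Lyz2. The 10 endothelial markers summed to 39.3 and 47.8 CPM in vehicle and 53.2 and 68.4 CPM in LA, mostly from Emcn, which was not called (adjusted p = 0.0501), while Prox1 and Cldn5 had 0 counts. Of 8 melanocyte and melanoma markers 5 had 0 counts in all 4 libraries. The part of other cells in the results was not tested.

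A gene was called when its Benjamini-Hochberg adjusted p in edgeR was under 0.05 and its log2 fold change, LA minus vehicle, lay beyond 0.39. LA called 310 of 12137 genes (2.55%), of which 159 were higher (1.31%) and 151 lower (1.24%). Changes were mostly small. The median absolute log2 fold change of a called gene was 0.72, and only 28 genes rose and 58 fell by more than 1 on the log2 scale. In all 310 called genes the LA libraries lay outside the vehicle libraries, and the same held upward for 23.7% and downward for 24.2% of all tested genes. The absence of overlap stated below for single called genes is therefore no support beyond their call. Leaving out any 1 of the 4 libraries kept the direction of all 310 genes but reduced the calls to 74 without LA replicate 1, 71 without LA replicate 2, 81 without vehicle replicate 1 and 57 without vehicle replicate 2. In these fits 39 genes, 12 higher and 27 lower, were called whichever library was left out.

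To see which cell functions were touched, 63 gene lists were described by their counts of called members and by their medians. The called genes comprised 119 list members and 191 genes in none. In 25 lists no member was called. The median log2 fold change over all tested genes was close to 0, and 49.9% of genes lay above 0.

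**Figure D1:**
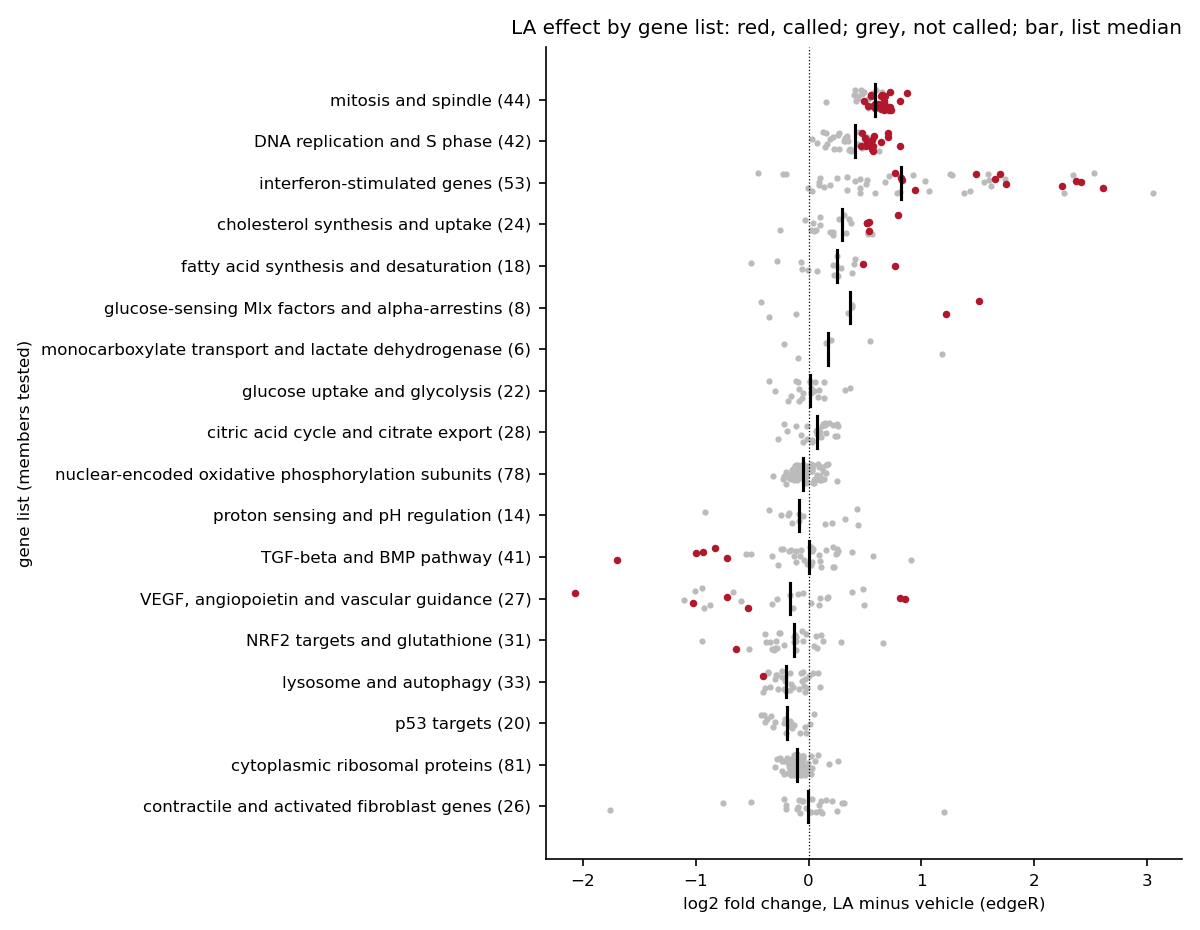
Log2 fold change of LA minus vehicle (horizontal axis) for each tested member of 18 gene lists (vertical axis, number of members tested in parentheses). Red points were called, grey points were not, and bars are list medians. Mitosis and DNA replication members all lie above 0, the medians of glycolysis and of oxidative phosphorylation lie near 0, and the called members of the TGF-beta list all lie below 0.

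The largest group of called genes belonged to cell division. Of 44 tested genes of mitosis and the spindle, 26 were called higher and 0 lower, against 1.31% of all genes called higher, and all 44 had a log2 fold change above 0, with a median of 0.59. Of 42 tested genes of DNA replication and S phase, 14 were called higher and 0 lower, again with all 42 above 0 and a median of 0.41. Single changes were moderate, and no called member of the lists reached 1 on the log2 scale.

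The genes named next run from the signal for entry into mitosis to the spindle. Cdk1, the kinase that drives entry into mitosis, had 74.8 and 71.8 CPM in vehicle and 123.3 and 110.3 CPM in LA. Both LA libraries were above both vehicle libraries (log2 fold change 0.67, SE 0.10, adjusted p = 0.00839). Its partner cyclin Ccnb2 had 28.8 and 24.6 CPM in vehicle and 44.8 and 43.3 CPM in LA. The groups did not overlap, and the log2 fold change was 0.72 (SE 0.11, adjusted p = 0.00886). Kif11, the kinesin that separates the spindle poles, had 74.8 and 71.5 CPM in vehicle and 113 and 111 CPM in LA, a 1.53-fold rise (adjusted p = 0.00937). Top2a, which untangles sister chromosomes, had 219 and 201 CPM in vehicle and 345 and 316 CPM in LA, a 1.57-fold rise (adjusted p = 0.011). Cenpf, a kinetochore protein of late G2, had 37.3 and 36.2 CPM in vehicle and 64.1 and 70.1 CPM in LA. It had the smallest p of the list, with a 1.83-fold rise (adjusted p = 0.00305). Mki67, the gene of the proliferation antigen Ki-67, had 124 and 116 CPM in vehicle and 210.0 and 213 CPM in LA, and rose 1.76-fold (adjusted p = 0.0194).

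Genes of the replication fork moved in the same direction by less. Mcm3, a subunit of the replicative helicase, had 63.3 and 64.5 CPM in vehicle and 105 and 94.1 CPM in LA. It rose 1.56-fold (adjusted p = 0.00859), without overlap. Its partner subunit Mcm5 had 73.7 and 70.2 CPM in vehicle and 112 and 103 CPM in LA, a 1.49-fold rise (adjusted p = 0.0116). Rrm2, the regulated subunit of ribonucleotide reductase, had 66.9 and 69.7 CPM in vehicle and 103 and 92.1 CPM in LA, a 1.42-fold rise (adjusted p = 0.025). Among regulators of the cycle, the pocket protein gene Rbl1 rose 1.54-fold, from 21.1 and 21.6 CPM to 33.7 and 32.3 CPM (adjusted p = 0.0239). Cyclin D1 (Ccnd1) and the inhibitor Cdkn1a were not called. Cdkn1a had 152 and 162 CPM in vehicle and 123.1 and 112 CPM in LA (adjusted p = 0.0552). CCM, at 111 and 120 CPM of Cdkn1a, was near LA. In 20 tested p53 targets no gene was called, which at 2.55% of all genes called is not a result about that list. Of the 20 targets, 18 lay below 0 and the median log2 fold change was -0.19. The line carries the p53 ER/ER allele, which vehicle and LA libraries share, and its part in these levels was not tested.

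The level of the division genes was then set beside the other 2 conditions. The summed CPM of the mitosis list was 2313 and 2090 in vehicle, 3431 and 3173 in LA, 3298 and 3181 in CCM, and 1307 and 1373 in TCM. The LA libraries therefore lay at the level of the CCM libraries, with vehicle lower and TCM lowest. For the S phase list the sums were 1761 and 1754 in vehicle, 2420 and 2178 in LA, 2508 and 2501 in CCM, and 1676 and 1582 in TCM. Here CCM was highest and LA followed. The LA and TCM effects share no library, and the test of their difference, which called 10.4% of all genes, called 43 of the 44 mitosis genes and 36 of the 42 S phase genes. For Top2a the LA effect was 0.65 and the TCM minus CCM effect -1.27 on the log2 scale (adjusted p of the difference 4.39e-05).

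**Figure D2:**
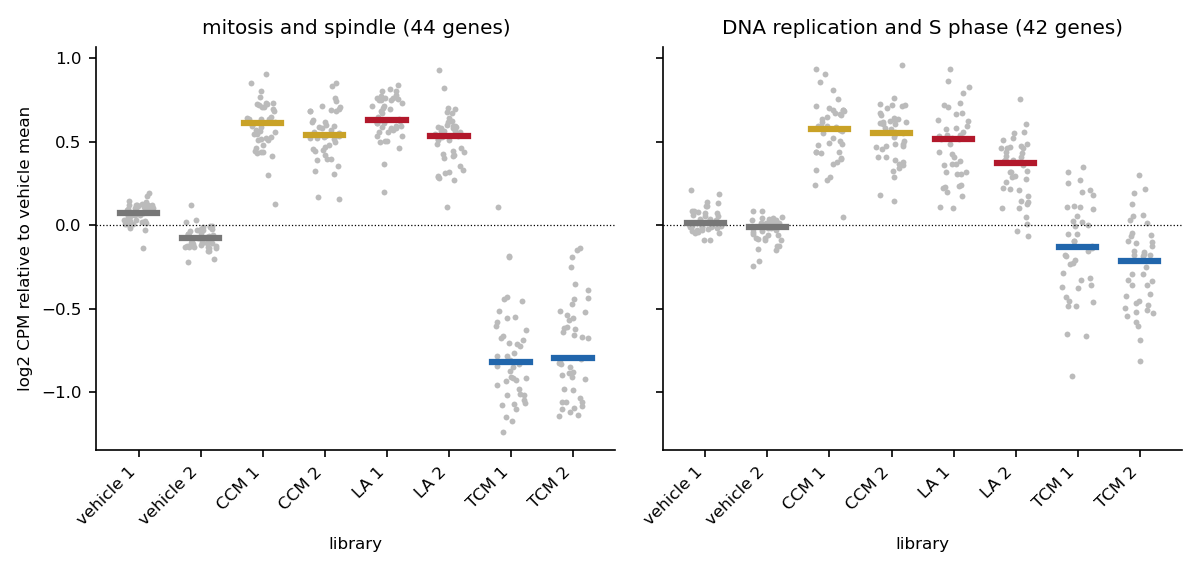
Level of each tested mitosis gene (left, 44 genes) and S phase gene (right, 42 genes) in each of the 8 libraries, as log2 CPM relative to the mean of the vehicle libraries (vertical axis). Grey points are genes and colored bars are medians per library. The mitosis medians are 0.63 and 0.54 in LA, 0.61 and 0.54 in CCM, and -0.82 and -0.80 in TCM.

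Cell number or growth rate was not measured in these files, and in bulk RNA more dividing cells cannot be told apart from more of these transcripts per dividing cell. The calls depended on the number of libraries and on which groups entered the fit. Without the CCM libraries 19 mitosis and 3 S phase genes were called, and without the TCM libraries 40 and 20. Both fits were added after the data were seen, and in both all 44 and all 42 genes stayed above 0. The mitosis count was 1 without LA replicate 1, 3 without LA replicate 2, 7 without vehicle replicate 1 and 0 without vehicle replicate 2, although all 44 genes stayed above 0 each time. The S phase count was 0, 2, 1 and 0 in the same order.

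Division genes are known to share short promoter motifs, the CCAAT box and the cell cycle homology element TTTGAA, so the RefSeq promoters (build GRCm38.p6, 250 bases before to 50 after each annotated start) were searched on both strands. TTTGAA was found in 72.5% of 40 promoters of the mitosis list and in 12.1% of 12015 promoters of all tested genes. CCAAT was found in 75.0% and 38.2%. For S phase genes the shares were 13.2% and 57.9% of 38 promoters. These counts describe letters and not binding. The 250 bases before the start are shown for Ccnb2 (chr9:70421555-70421804, minus strand), Cdk1 (chr10:69352913-69353162, minus strand) and Top2a (chr11:99024190-99024439, minus strand), because these genes rose together. They are written 5′ to 3′ with CCAAT and TTTGAA, on either strand, in capitals.
Ccnb2: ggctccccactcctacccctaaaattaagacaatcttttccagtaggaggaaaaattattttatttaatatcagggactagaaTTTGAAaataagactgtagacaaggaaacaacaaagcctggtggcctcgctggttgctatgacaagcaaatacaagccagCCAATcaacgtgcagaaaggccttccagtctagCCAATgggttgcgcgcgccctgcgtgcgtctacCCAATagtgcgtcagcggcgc
Cdk1: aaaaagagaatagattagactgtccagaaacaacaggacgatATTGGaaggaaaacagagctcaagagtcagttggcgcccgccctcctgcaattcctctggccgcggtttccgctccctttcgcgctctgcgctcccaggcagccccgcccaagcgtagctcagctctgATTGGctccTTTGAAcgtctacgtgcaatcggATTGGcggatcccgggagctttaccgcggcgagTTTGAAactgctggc
Top2a: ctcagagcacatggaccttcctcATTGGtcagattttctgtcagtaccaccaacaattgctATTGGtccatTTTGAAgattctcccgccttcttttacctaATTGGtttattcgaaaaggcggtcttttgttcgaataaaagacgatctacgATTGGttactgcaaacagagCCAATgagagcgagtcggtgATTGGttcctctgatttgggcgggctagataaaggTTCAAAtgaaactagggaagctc
In these windows Ccnb2 held 3 CCAAT and 1 TTTGAA matches, Cdk1 held 3 and 2, and Top2a held 6 and 2.

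In contrast to the division genes, a pair of histone genes fell. H1f2, a linker histone, had 39.9 and 42.6 CPM in vehicle and 15.5 and 18.5 CPM in LA. The groups were far apart, with a 2.41-fold fall (adjusted p = 0.000498). H2bc4, a core histone of the H2B family, had 18.0 and 22.2 CPM in vehicle and 7.10 and 8.82 CPM in LA, a 2.49-fold fall (adjusted p = 0.00547). CCM levels of H1f2 were 31.5 and 29.2 CPM, between the other groups. The libraries were made from polyadenylated RNA, whereas most histone messages of S phase carry no poly(A) tail, and histone genes are near-identical copies whose reads may be split in counting.

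In the list of glucose-sensing Mlx factors and alpha-arrestins, 2 of 8 tested genes were called, both higher, against 1.31% of all genes called higher. Txnip, which binds thioredoxin and limits glucose uptake, had 173 and 179 CPM in vehicle and 384 and 434 CPM in LA. Both LA libraries were more than 2-fold above both vehicle libraries (log2 fold change 1.22, SE 0.10, adjusted p = 0.000216). Arrdc4, a related arrestin, had 8.82 and 10.5 CPM in vehicle and 26.6 and 28.6 CPM in LA. It rose 2.86-fold (log2 fold change 1.51, SE 0.19, adjusted p = 0.0021), with no overlap. Both genes are textbook targets of the glucose-sensing Mondo-Mlx transcription factors. Neither stood high in CCM, where Txnip had 211 and 203 CPM and Arrdc4 13.1 and 9.46 CPM. The TCM minus CCM effect was 0.14 for Txnip and -0.03 for Arrdc4 on the log2 scale, which were not called, and both effects differed from the LA effect (adjusted p of the difference 0.000482 and 0.00436).

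The other 6 tested genes of the Mlx and arrestin list were not called. Their log2 fold changes lay between -0.42 for Arrdc1 and 0.38 for Mlxip. Mlxipl, which encodes the related factor ChREBP, had 0 counts in the 4 LA and vehicle libraries. Glycolysis, which these factors are known to sense, showed 0 called of 22 genes, which at 2.55% of all genes called is not a result about that list.

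The 250 bases before the start are shown for Txnip (chr3:96557707-96557956, plus strand) and Arrdc4 (chr7:68749239-68749488, minus strand), since they were the family members that rose. Capitals mark CACGNG on either strand in Txnip and CACGTG in Arrdc4, the core of the element that Mlx factors are known to bind.
Txnip: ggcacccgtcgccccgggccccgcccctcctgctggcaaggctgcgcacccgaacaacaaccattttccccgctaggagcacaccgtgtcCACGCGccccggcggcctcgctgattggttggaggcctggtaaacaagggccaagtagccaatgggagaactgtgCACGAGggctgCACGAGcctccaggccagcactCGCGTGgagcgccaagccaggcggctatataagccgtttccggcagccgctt
Arrdc4: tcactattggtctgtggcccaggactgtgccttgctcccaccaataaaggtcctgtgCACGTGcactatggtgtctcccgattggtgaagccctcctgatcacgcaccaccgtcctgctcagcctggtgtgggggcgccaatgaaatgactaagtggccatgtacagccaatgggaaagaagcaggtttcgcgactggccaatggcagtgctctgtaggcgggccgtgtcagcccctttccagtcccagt
The Txnip window held 4 CACGNG matches and the Arrdc4 window 1 CACGTG. Among promoters of all tested genes 40.5% held CACGNG and 9.97% held CACGTG, and of promoters of genes called higher 30.9% and 6.71% did.

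Sterol synthesis gave calls in 1 direction. Of 24 tested genes of cholesterol synthesis and uptake, 5 were called higher and 0 lower, against 1.31% of all genes called higher. In this list 22 genes lay above 0 and the median log2 fold change was 0.29. The summed CPM of the list was 3452 and 3599 in vehicle, 4004 and 4324 in LA, 3354 and 3464 in CCM, and 3966 and 3943 in TCM. LA and TCM both lay above vehicle and CCM in this sum.

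Of the called members, 4 are described here. Acat2, the cytosolic thiolase that condenses acetyl-CoA, had 59.2 and 56.1 CPM in vehicle and 101 and 98.7 CPM in LA, a 1.73-fold rise (adjusted p = 0.0029). Nsdhl, which removes a methyl group from the sterol ring, had 75.5 and 75.9 CPM in vehicle and 108 and 109 CPM in LA (1.43-fold, adjusted p = 0.0194). Dhcr7, the last step of cholesterol synthesis in one of its branches, had 47.4 and 47.0 CPM in vehicle and 67.1 and 69.5 CPM in LA (1.45-fold, adjusted p = 0.0354). Stard4, a carrier that moves sterol between membranes, had 103 and 102 CPM in vehicle and 142 and 155 CPM in LA (1.45-fold, adjusted p = 0.025). All 4 were without overlap between groups, as was every called gene.

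Other members were not called. Hmgcs1 had 475 and 539.7 CPM in vehicle and 601 and 698 CPM in LA (adjusted p = 0.152), and squalene epoxidase (Sqle) had a log2 fold change of -0.03. The TCM effect was 0.77 for Acat2 and 0.52 for Nsdhl on the log2 scale, beside LA effects of 0.79 and 0.52, and for none of the 4 was the difference between the LA and TCM effects called (adjusted p of the difference between 0.212 for Stard4 and 0.991 for Nsdhl). In the neighboring list of fatty acid synthesis, 2 of 18 genes were called higher, against 1.31% of all genes. These were Acss2, which makes acetyl-CoA from acetate, at 31.3 and 31.7 CPM in vehicle and 47.3 and 59.3 CPM in LA (1.70-fold, adjusted p = 0.0107), and the desaturase Scd1, at 231 and 229.9 CPM in vehicle and 298 and 347 CPM in LA (1.40-fold, adjusted p = 0.0429). The Acss2 locus overlaps annotated genes on both strands.

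Leaving out 1 library took the sterol count to 1 without LA replicate 1, LA replicate 2 or vehicle replicate 1, and to 0 without vehicle replicate 2; between 21 and 23 of the 24 genes stayed above 0. The CCAAT box was found in 80.0% of 20 promoters of this list, against 38.2% of all tested genes.

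**Figure D3:**
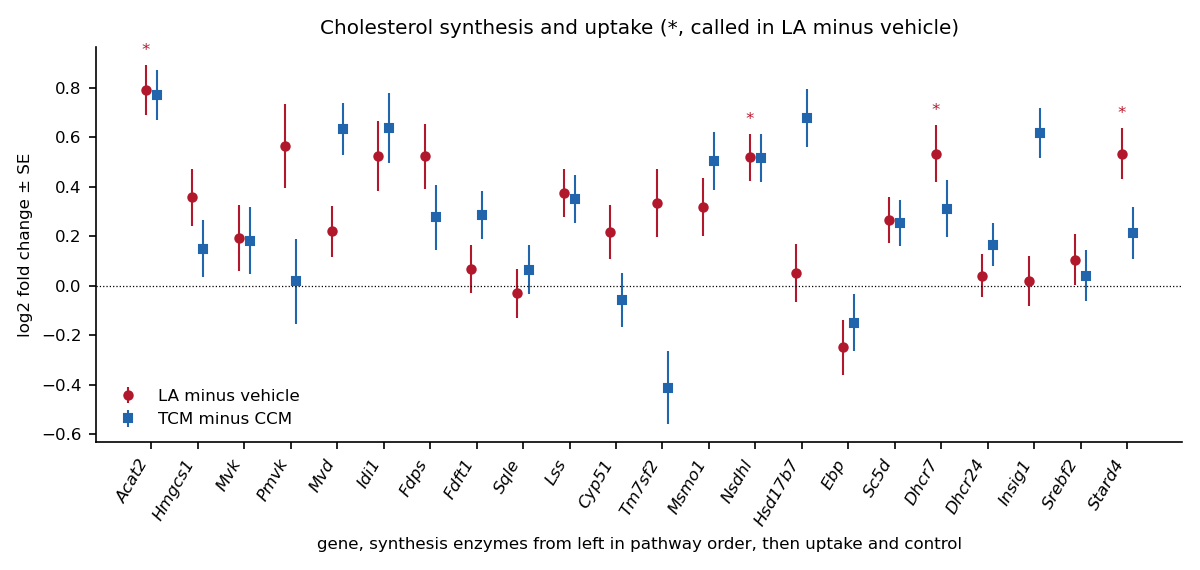
Log2 fold change with its standard error (vertical axis) for 22 of the 24 tested genes of cholesterol synthesis and uptake, broadly in pathway order. Red circles are LA minus vehicle, blue squares are TCM minus CCM, and asterisks mark the 4 of these genes called in LA minus vehicle. Acat2 stands at 0.79 with LA and 0.77 with TCM.

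Genes of monocarboxylate transport and lactate dehydrogenase were examined next. Of 6 tested, 0 were called, which at 2.55% of all genes called is not a result about this list. The lactate importer Slc16a1 (MCT1) had 32.8 and 32.9 CPM in vehicle and 36.6 and 38.7 CPM in LA, a log2 fold change of 0.20 (adjusted p = 0.458). Slc16a3 (MCT4), the exporter of glycolytic cells, was at 1.01 and 0.833 CPM in vehicle and at 1.42 and 2.54 CPM in LA, which rests on 9 to 36 counts. Ldha had 629.6 and 586 CPM in vehicle and 689 and 662 CPM in LA (adjusted p = 0.597), and Ldhb 11.6 and 11.01 against 15.7 and 17 CPM (adjusted p = 0.0777). For Ldha the TCM effect was 0.97 and differed from the LA effect of 0.15 (adjusted p of the difference 0.00515). The receptor genes Gpr4 and Gpr65, which sense protons, had at most 1 count in any of the 4 libraries, and 0 of 14 tested genes of pH regulation were called. In energy metabolism 0 of 28 genes of the citric acid cycle and 0 of 30 targets of hypoxia-inducible factor were called. Oxidative phosphorylation had 0 called of 78 nuclear and 0 of 7 mitochondrial genes. At 2.55% of all genes called, these counts and that of pH regulation are not a result about the lists. Of the 28 citric acid cycle genes, 20 lay above 0 and 8 below (median 0.08). Of the 78 nuclear genes, 26 lay above 0 and 52 below (median -0.05), and of the 30 targets 9 above and 21 below (median -0.04). Of 32 genes of fatty acid oxidation, 2 were called: the fatty acid carrier Fabp4 rose from 13.3 and 14.8 to 31.8 and 34.2 CPM (2.35-fold, adjusted p = 0.00762), with CCM at 35.0 and 34.6 CPM, and the isomerase Eci1 fell from 37.4 and 37.3 to 28.2 and 26.0 CPM (1.38-fold, adjusted p = 0.0469). In the pyruvate list only Pdp1, the phosphatase that activates pyruvate dehydrogenase, fell, from 68.4 and 47.5 CPM to 38.2 and 32.9 CPM (1.63-fold, adjusted p = 0.0408). Its CCM levels, 37.95 and 39.1 CPM, were at those of LA.

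Secreted and signaling genes gave calls in both directions. Il1rn, the natural antagonist of the interleukin-1 receptor, had 93.4 and 96.2 CPM in vehicle and 169.8 and 205 CPM in LA. It rose 1.98-fold (log2 fold change 0.99, SE 0.11, adjusted p = 0.00112), with no overlap. CCM held 144 and 131 CPM, and the TCM effect was -0.67 and differed from the LA effect (adjusted p of the difference 8.01e-05). Has2, which synthesizes hyaluronan, had 26.2 and 25.8 CPM in vehicle and 49.3 and 49.2 CPM in LA, a 1.89-fold rise (adjusted p = 0.00112). Nts, the precursor of the peptide neurotensin, had 21.2 and 25.2 CPM in vehicle and 46.1 and 52.5 CPM in LA. It rose 2.13-fold with LA (adjusted p = 0.00314), whereas the TCM minus CCM effect was -2.32 (adjusted p of the difference 3.91e-05). Hgf, the growth factor of hepatocytes and endothelium, rose 2.45-fold from 6.03 and 8.51 CPM to 13.8 and 21.4 CPM (adjusted p = 0.0297), with CCM at 15.7 and 11.6 CPM.

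Among regulators, Trib2, a pseudokinase that acts as a scaffold for ubiquitin ligases, had 64.2 and 69.5 CPM in vehicle and 120.3 and 123.2 CPM in LA, a 1.82-fold rise (adjusted p = 0.00158). Slc43a3, a nucleobase transporter, rose 1.70-fold from 42.9 and 45.1 CPM to 73.8 and 76.1 CPM (adjusted p = 0.00283). Etv4 and Etv5, transcription factors induced by ERK signaling, were the only 2 called genes of 32 in the ERK list, against 2.55% of all genes. Etv4 had 7.71 and 12.2 CPM in vehicle and 19.8 and 26.5 CPM in LA (2.32-fold, adjusted p = 0.0161), and Etv5 had 32.1 and 46.7 CPM in vehicle and 65.8 and 80.0 CPM in LA (1.85-fold, adjusted p = 0.0206). The groups were apart for both, and the CCM levels of Etv4, 26.8 and 21.5 CPM, were as high as those of LA. In the list of Wnt antagonists and targets 2 of 16 genes were called, and in that of ligands and receptors 2 of 25, against 2.55% of all genes. Lef1, a nuclear partner of beta-catenin, rose 2.23-fold (adjusted p = 0.0422) and Rspo3, a secreted amplifier of Wnt signals, rose 1.43-fold (adjusted p = 0.0235). Axin2, a target gene of the pathway, fell at a low level: it had 1.68 and 2.04 CPM in vehicle and 0.355 and 0.141 CPM in LA, from 3 and 2 counts (adjusted p = 0.0132). The ligand gene Wnt4 fell from 7.71 and 7.03 to 2.48 and 2.82 CPM (2.73-fold, adjusted p = 0.0154).

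Among the falls of smallest p were a receptor, a secreted carrier and a protease inhibitor. Npy1r, a receptor for neuropeptide Y, had 15.9 and 15.8 CPM in vehicle and 4.73 and 4.37 CPM in LA. The LA libraries were far below vehicle (3.496-fold, log2 fold change -1.81, SE 0.16, adjusted p = 0.000317), and CCM lay between at 10.5 and 10.2 CPM. Igfbp3, a carrier of insulin-like growth factors, had 48.4 and 58.0 CPM in vehicle and 21.2 and 18.0 CPM in LA (2.74-fold, adjusted p = 0.000532). CCM held 42.8 and 40.7 CPM, and the TCM effect of -0.11 differed from the LA effect (adjusted p of the difference 0.00132). Serpinb9b, an intracellular protease inhibitor, had 88.0 and 72.2 CPM in vehicle and 32.8 and 30.9 CPM in LA (2.52-fold, adjusted p = 0.000317). Here CCM, at 34.6 and 37.6 CPM, was just above LA. The TCM minus CCM effect was 1.14 on the log2 scale, with TCM at 80.3 and 79.0 CPM.

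Ada, adenosine deaminase, which removes extracellular and intracellular adenosine, had 52.7 and 40.8 CPM in vehicle and 18.0 and 11.9 CPM in LA. It fell 3.19-fold (adjusted p = 0.00112), and CCM held 22.1 and 22.7 CPM. Alcam, an adhesion molecule of the immunoglobulin family, had 82.8 and 94.4 CPM in vehicle and 29.6 and 38.1 CPM in LA (2.60-fold, adjusted p = 0.00126). Pi16, a marker of fibroblasts that surround vessels, had 12.8 and 12.5 CPM in vehicle and 2.96 and 4.02 CPM in LA (3.53-fold, adjusted p = 0.00112). Its fall was larger with TCM, -3.58 against -1.82 on the log2 scale (adjusted p of the difference 0.0165). Hopx, a homeodomain protein that binds no DNA, had 30.5 and 35.6 CPM in vehicle and 9.58 and 10.4 CPM in LA (3.30-fold, adjusted p = 0.00112). Pdgfc, a ligand of the PDGF receptor alpha, had 76.2 and 81.3 CPM in vehicle and 35.6 and 42.5 CPM in LA (2.01-fold, adjusted p = 0.00146), and the TCM effect on it was -0.99. As in every called gene, vehicle and LA did not overlap in these 5.

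Further genes with small p or large fold belonged to no list or to a list with 1 call. Armcx4, of the armadillo repeat family, rose 2.22-fold from 14.4 and 13.7 to 24.96 and 36.5 CPM (adjusted p = 0.00778), with CCM at 25.4 and 22.9 CPM. The drug efflux transporter gene Abcg2 rose 1.497-fold (adjusted p = 0.0107) and the DNA repair gene Fignl1 rose 1.71-fold (adjusted p = 0.00778). CCM lay between vehicle and LA for Abcg2, at 101 and 95.9 CPM. Fignl1 was near LA in CCM, with 32.8 and 34.3 CPM in CCM and 37.5 and 33.0 CPM in LA. Rab3c, a small GTPase of secretory vesicles, rose 3.39-fold at a low level, from 0.670 and 1.39 to 2.96 and 4.09 CPM (adjusted p = 0.0389). Among genes that fell, the Notch effector Hey2 went from 20.4 and 23.5 to 8.16 and 11.1 CPM (2.24-fold, adjusted p = 0.0054). Rhbdf2, a pseudoprotease that carries a TNF-releasing enzyme to the surface, fell 2.14-fold (adjusted p = 0.00385), the phosphohydrolase gene Nudt4 fell 2.03-fold (adjusted p = 0.00538) and Crip2, a LIM domain protein, fell 1.71-fold (adjusted p = 0.00547). CCM levels of Crip2, 64.0 and 66.0 CPM, were close to LA at 61.9 and 62.0 CPM, whereas those of Rhbdf2 and Nudt4 lay between vehicle and LA. Some large falls were at low levels. Gm43085 fell 4.94-fold (adjusted p = 0.00623), from 4.13 and 3.79 to 0.591 and 0.917 CPM, with CCM at 1.35 and 0.860 CPM. Syn3 fell 3.52-fold (adjusted p = 0.0391), and Sorcs2, a sorting receptor, fell 3.45-fold (adjusted p = 0.014). Sorcs2 had 6.03 and 7.96 CPM in vehicle, 2.53 and 3.06 CPM in CCM, and 1.18 and 2.61 CPM in LA.

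Whichever of the 4 libraries was left out, the genes outside the study's own plots that stayed called were 8 higher and 14 lower. The higher genes were Txnip, Cd34, Il1rn, Has2, Trib2, Arrdc4, Slc43a3 and Nts. The lower genes were Npy1r, Serpinb9b, H1f2, Igfbp3, Hopx, Pi16, Ada, Ptprd, Alcam, Pdgfc, Clca3a2, Tubb3, Fhl1 and Anxa8. Of those not yet described, Ptprd, a receptor tyrosine phosphatase, had 64.6 and 69.3 CPM in vehicle and 32.7 and 35.6 CPM in LA (1.96-fold, adjusted p = 0.00126). CCM was near LA, at 39.0 and 36.2 CPM. Tubb3, a beta-tubulin best known from neurons, had 44.9 and 39.6 CPM in vehicle and 20.2 and 15.03 CPM in LA (2.43-fold, adjusted p = 0.00204). The LIM domain gene Fhl1 fell 1.62-fold (adjusted p = 0.00205), and the annexin gene Anxa8 fell 2.61-fold (adjusted p = 0.0029). None of the division or sterol genes was among the genes that stayed called. Apart from those genes and Bmper, each called gene given with values here lost its call without at least 1 library.

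**Figure D4:**
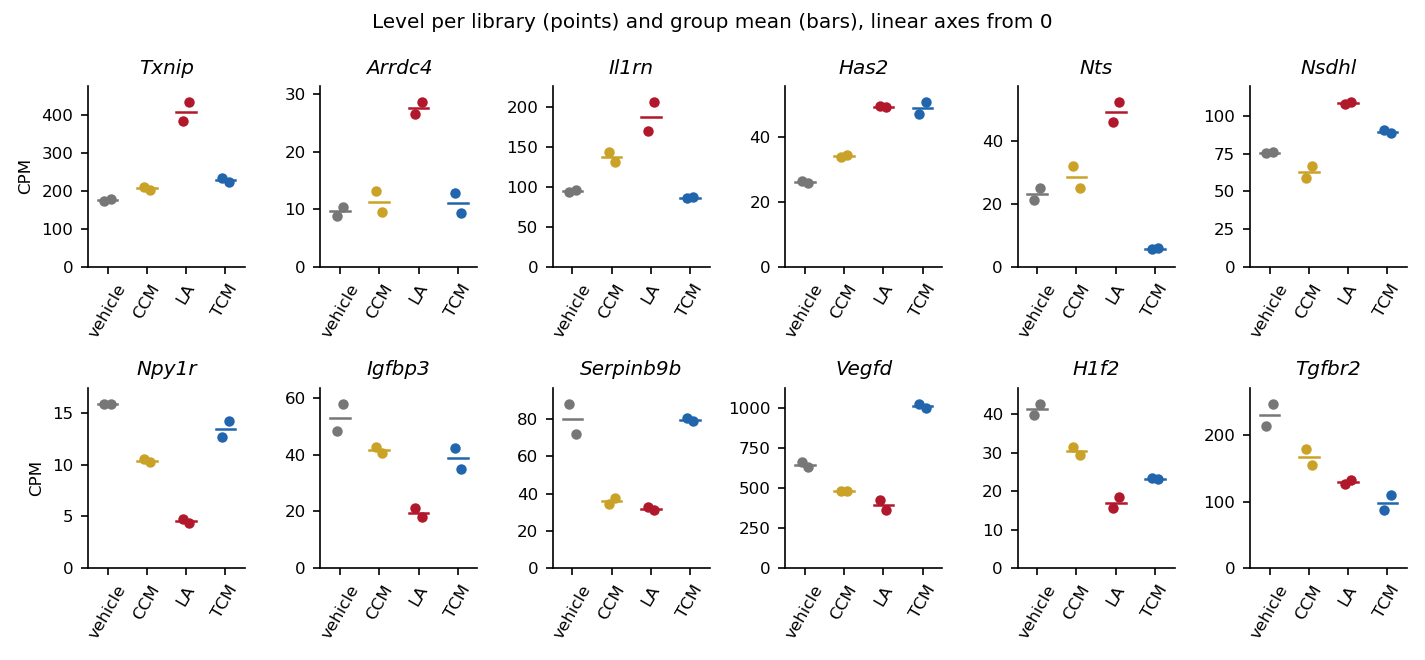
CPM per library (points) and group mean (bars) of 12 genes in vehicle, CCM, LA and TCM, with linear axes from 0. Txnip and Arrdc4 are highest in LA, Npy1r and Igfbp3 are lowest in LA, and for Serpinb9b and Vegfd the LA and CCM levels are below vehicle while TCM is above CCM.

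In the TGF-beta and BMP list, 5 of 41 tested genes were called, all lower, against 1.24% of all genes called lower. The median of the list was 0.01. Tgfbr2, the ligand-binding TGF-beta receptor, had 214 and 247 CPM in vehicle and 127 and 133 CPM in LA (1.78-fold, adjusted p = 0.00826). The remaining called members act outside the cell: the ligand gene Gdf6 fell from 13.7 and 12.5 to 6.39 and 7.12 CPM (adjusted p = 0.00937), and the antagonist Nbl1 fell from 31.5 and 35.8 to 17.3 and 22.9 CPM (adjusted p = 0.0243). Follistatin (Fst), which traps activins, fell from 212 and 319.9 to 112 and 154 CPM (adjusted p = 0.0267), and Bmper, a BMP-binding protein, was the fifth. The TCM effect on Gdf6 was opposite, at 1.82 (adjusted p of the difference 3.91e-05). The count of called members was 1 without LA replicate 1, 2 without LA replicate 2, 3 without vehicle replicate 1 and 1 without vehicle replicate 2. Id1, a direct BMP target, was not called (log2 fold change 0.22, adjusted p = 0.513).

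In the vascular list, 2 of 27 genes rose and 4 fell, against 2.55% of all genes called in either direction. The 6 calls became 3 without LA replicate 1 and 2 without LA replicate 2, vehicle replicate 1 or vehicle replicate 2. Ramp2, part of the adrenomedullin receptor, rose from 11.3 and 12.6 to 22 and 21.4 CPM (1.81-fold, adjusted p = 0.0204); it overlaps Vps25. Vegfd, the lymphatic growth factor, had 661 and 632 CPM in vehicle and 424 and 362 CPM in LA, a 1.65-fold fall (adjusted p = 0.00623). Its CCM levels were 485 and 479.8 CPM, and the TCM minus CCM effect was 1.07 on the log2 scale (adjusted p of the difference 4.87e-05). Ntn4, a netrin of the basement membrane, fell 1.45-fold (adjusted p = 0.0447), from 33.6 and 40.7 to 25.1 and 26.2 CPM. CCM held 22.9 and 22.9 CPM of Ntn4. Vegfa was not called (adjusted p = 0.707).

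In stress pathways the called shares were near the 2.55% of all genes. Of 31 tested targets of the oxidative stress factor NRF2, 1 was called: heme oxygenase (Hmox1) fell from 90.9 and 76.6 CPM to 57.5 and 50.01 CPM (1.56-fold, adjusted p = 0.0193). CCM held 63.9 and 61.8 CPM of Hmox1. In the NRF2 list 24 genes lay below 0, with a median of -0.13. Of 33 lysosomal and autophagy genes, 29 lay below 0 (median -0.20), and the protease gene Ctsa was the only one called, falling from 217 and 217 CPM to 166 and 161 CPM (adjusted p = 0.0311). Among 43 targets of the amino acid stress factor ATF4, Nupr1, a stress-induced chromatin protein, fell 1.72-fold (adjusted p = 0.00547) and the amino acid transporter Slc1a4 fell 1.37-fold (adjusted p = 0.0329). The metal-binding protein gene Mt1 fell from 15.9 and 17.3 to 7.45 and 7.27 CPM (2.26-fold, adjusted p = 0.00623), with log2 fold changes of -1.18 with LA and -1.17 with TCM. No gene of ER chaperones (21 tested), heat shock proteins (13) or cytoplasmic ribosomal proteins (81) was called. The ribosomal median was -0.10, with 70 genes below 0.

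Of 26 tested contractile and activation genes, 0 were called, again against 2.55% of all genes, and the median log2 fold change was below 0.01 in size. Acta2 had a log2 fold change of -0.10 (adjusted p = 0.838) and Col1a1 of 0.13 (adjusted p = 0.711). Fibromodulin (Fmod), which spaces collagen fibrils, fell from 536 and 509.7 CPM to 384 and 346 CPM (1.43-fold, adjusted p = 0.0278). In the cytokine list Lif, a cytokine of the interleukin-6 family, fell from 6.37 and 6.198 CPM to 2.84 and 1.62 CPM (2.96-fold, adjusted p = 0.0204), while Ccl2 was not called (adjusted p = 0.353). Il7, the T cell survival factor of FRCs, was measured at 0.559 and 0.925 CPM in vehicle and 1.42 and 1.83 CPM in LA, from 5 to 26 counts (adjusted p = 0.199). Interferon-stimulated genes had the highest list median, 0.82, with 12 of 53 called higher and 0 lower, against 1.31% of all genes called higher. A fit of only the LA and vehicle libraries called 30 members, and no filter on low counts gave 29. The count was 2 without LA replicate 1, 1 without LA replicate 2, 2 without vehicle replicate 1 and 1 without vehicle replicate 2, and DESeq2 called 19.

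Of the 310 genes called with LA, 167 also differed between the LA and TCM effects, and for 104 of those the TCM effect was called in the opposite direction. All 26 called mitosis genes, 12 of the 14 called S phase genes, Il1rn, Nts, Gdf6, Vegfd and Serpinb9b were of that kind. The LA effect was taken from vehicle and the TCM effect from CCM, and these baselines were not always alike. Mean levels in vehicle and CCM were 80.1 and 36.1 CPM for Serpinb9b, and 13.1 and 12.8 CPM for Gdf6. For Serpinb9b the TCM mean, 79.7 CPM, was near that of vehicle. Il1rn means were 94.8 CPM in vehicle, 137 CPM in CCM and 86.3 CPM in TCM. The mitosis sums given above were higher in CCM than in vehicle, and lower in TCM than in vehicle. Of the called genes, 74 of the 159 higher and 77 of the 151 lower overlapped another annotated gene, among them Txnip, Has2, Kif11, Top2a, Mki67, Hopx, Pi16 and Fst. Reads of overlapping genes may be shared, because the sources used here do not say whether counting used strand.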

How the data were processed

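RNA of FRCs was measured by poly(A) RNA sequencing in 8 libraries, 2 for each of 4 conditions. Per the labels and the study's methods, the authors aligned directional reads to GRCm38 with STAR 2.7.0a and counted them per gene with featureCounts (Subread 2.0.1), and deposited whole-number counts without normalization. A second deposited table held the same counts for the 12137 tested genes and was not used. From the counts, genes reaching 10 counts in 3 or more of the 8 libraries were fitted with edgeR 4.0.16 (TMM, quasi-likelihood test, R 4.3.3) on all 8 libraries. A gene was called at a Benjamini-Hochberg adjusted p under 0.05 over all 12137 genes and a log2 fold change beyond 0.39; standard errors were derived from the F statistic. Folds are fitted values on the linear scale. The TCM and LA effects were compared as (TCM minus CCM) minus (LA minus vehicle). The calculation was tested on simulated data. Alternatives included DESeq2 1.42.0, other normalizations, filters, thresholds and left-out libraries.

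Named genes were taken from the 20 called genes per direction of smallest p and the 5 of largest fold (mean of at least 2 CPM over the 4 libraries, the first also without overlap between groups), leaving out genes drawn by name in the study's plots, from up to 6 called members per gene list, and from set textbook members. Single members that were not called (Arrdc1, Mlxip, Sqle), markers and the added promoter motifs were named after their values were seen. Some genes are not reported here. The members and lists were chosen with earlier results of these data known. Of the tested genes, 11964 had a position in GENCODE M21 (GRCm38), matched by symbol, and promoters came from RefSeq. Depth was 8232889 to 14107964 counts per library; limits from 3 counts cover counting error only. Libraries of a group are described by the study as biological replicates and come from 1 line, so p-values measure only the spread between samples of that line.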

Additional observations from a re-analysis of the deposited data

How the results depend on the processing

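The calls depended most on the number of libraries and on the strictness of the threshold. Against 310 genes called (159 higher, 151 lower), no filter on low counts gave 656 (349 and 307), a log2 threshold of 0.68 gave 176 (74 higher) and of 1 gave 86 (28 and 58), and testing against 0.39 itself (glmTreat) gave 56 (16 and 40). Leaving out 1 library gave 57 to 81 calls, 21 to 32 higher and 36 to 55 lower, and left the lone library of a group assumed to vary like the others; the test comparing the TCM with the LA effect then gave 734 (without vehicle replicate 1) to 944 (without LA replicate 1) calls, against 1268. Fits added after the data were seen were these: without the TCM libraries 616 genes were called (316 and 300), and without the CCM libraries 183 (93 and 90). DESeq2 (327), its size factors (309), plain library totals (305), 10 counts in every library (284) and only the LA and vehicle libraries (454) stayed within 1.5 times. Among the genes selected for naming, those that changed sign when 1 library was left out were 11 uncalled genes, whose log2 fold changes ran for Acta2 from -0.24 to 0.034, Atf4 from -0.22 to 0.15, Ccn2 from -0.20 to 0.087, Ccnd1 from -0.0017 to 0.098, Cpt1a from -0.48 to 0.0061, Gapdh from -0.17 to 0.063, Pdpn from -0.11 to 0.15, Slc2a1 from -0.19 to 0.0022, Slc7a11 from -0.028 to 0.16, Tagln from -0.30 to 0.13 and Vegfa from -0.36 to 0.054. The cause was not tested.

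Replicate numbers named the samples without a stated pairing; replicate differences correlated at 0.42 between vehicle and LA. A replicate block gave 356 calls in the fit of 8 libraries, and 1117 (576 and 541) in the 4 libraries alone.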
